A study of Mus musculus with 8 samples.

Results

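Ribosome footprints of mouse liver were examined for the enzymes of the methionine cycle, of transsulfuration and of the steps that follow it. Ribosome profiling sequences the short mRNA fragments that a ribosome shields from nuclease, so the number of fragments on a coding sequence reflects how many ribosomes were translating it. The 10 genes were taken by symbol as sulfur amino acid and selenium methylation enzymes of liver, and 8 of them, Bhmt, Ahcy, Gnmt, Inmt, Cth, Cdo1, Csad and Suox, were among the 7500 genes with a line in the deposited table. The other 2, Mat1a and Cbs, had no line there, and their levels were not analysed here. The livers came from male wild-type FVB/N mice that received a selenium-deficient diet from weaning for 6 weeks, either with 0 ppm selenium added (0 Se, 2 mice and 4 libraries) or with 0.1 ppm added as sodium selenite (0.1 Se, 2 mice and 4 libraries). Each mouse gave 2 libraries, as read from the sample titles.

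The table holds 1 abundance per gene, with no sample named, and no value of a single mouse or of a single diet. That abundance was taken as the authors' average over all 8 libraries. The values below therefore describe livers of both diets together, with no SD, and the depth of the libraries is unknown. The difference between 0 Se and 0.1 Se was not analysed here for any of these enzymes, because the table holds it only in columns of the authors' own comparison. Abundance is given in CPM, the footprint counts of a gene scaled to a common library size. On this scale the 7500 genes with a line summed to 85.7% of footprints, so all ranks below are among these genes only. A missing line was not read as a low level, because the hepatocyte gene Cps1 had none either. Since a longer coding sequence holds more ribosomes, levels of different genes were compared as footprint density, the CPM divided by the coding length of the table in kilobases (CPM per kb).

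The methionine cycle turns methionine into S-adenosylmethionine, the methyl donor of most cellular methylation, and on to S-adenosylhomocysteine and homocysteine. Homocysteine is either methylated back to methionine or passed by transsulfuration, through cystathionine, to cysteine, which is built into glutathione or oxidised to taurine and sulfate. Liver carries much of the body's flux through these steps. Selenium travels partly by the same routes, since selenomethionine is handled as methionine and surplus selenium is methylated before it is excreted.

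Footprints were counted within the coding exons, away from both ends of the reading frame. The length in the table was 60 bases, or 20 codons, shorter than an annotated coding sequence for all 8 enzymes and for 7093 of 7260 genes whose symbol was found in the annotation. The methods of the study name the first 15 and the last 3 codons as left out and do not account for the other two. The first 15 are shown for the enzymes to mark one end of each reading frame that gave no counts. They are printed for 7 of the 8 genes, in lower case with in-frame methionine and cysteine codons in capitals.
Bhmt: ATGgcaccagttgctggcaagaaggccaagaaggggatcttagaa
Ahcy: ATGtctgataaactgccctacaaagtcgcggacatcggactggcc
Gnmt: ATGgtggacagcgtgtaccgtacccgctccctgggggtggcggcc
Inmt: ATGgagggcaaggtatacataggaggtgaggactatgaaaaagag
Cth: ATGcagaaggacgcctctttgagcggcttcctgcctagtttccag
Csad: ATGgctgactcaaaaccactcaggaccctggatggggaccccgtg
Suox: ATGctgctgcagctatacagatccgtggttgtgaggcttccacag
In all 7 the only capitals are those of the initiating ATG, and these first 15 codons hold 0 cysteine codons.

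The enzymes lie on 8 different chromosomes, and all 8 genes are on the minus strand (mm9 build, GENCODE M1 annotation). Bhmt spans 94386846 to 94407916 of chromosome 13 with 8 coding exons, Ahcy 154885046 to 154900233 of chromosome 2 with 10, Gnmt 46862613 to 46866117 of chromosome 17 with 6, and Inmt 55120620 to 55125037 of chromosome 6 with 3. Cth spans 157557212 to 157588041 of chromosome 3 with 12 coding exons, Cdo1 46872859 to 46887996 of chromosome 18 with 5, Csad 102007429 to 102019474 of chromosome 15 with 14, and Suox 128106943 to 128110974 of chromosome 10 with 3. Bhmt stands beside a pair of genes of the same route. Bhmt2 begins 17758 bases from it on chromosome 13, and Dmgdh, whose product oxidises the dimethylglycine that Bhmt releases, lies 130 bases beyond Bhmt2 on the opposite strand.

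On the CPM scale, the 8 enzymes together took 0.760% of counted footprints. By the largest ratio between neighbouring densities, they fell into 5 of high and 3 of lower density. The 5 high enzymes were Cdo1, Bhmt, Gnmt, Ahcy and Inmt, with 0.714% of counted footprints. The 3 others were Suox, Cth and Csad, with 0.0453%. All 8 lay above the median gene of the table, which had 11.3 CPM per kb, and the lowest of them exceeded it 9.41-fold. Their own median was 1167 CPM per kb. The gap between the groups lay between Inmt and Suox, where density differed 6.70-fold.

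**Figure D1:**
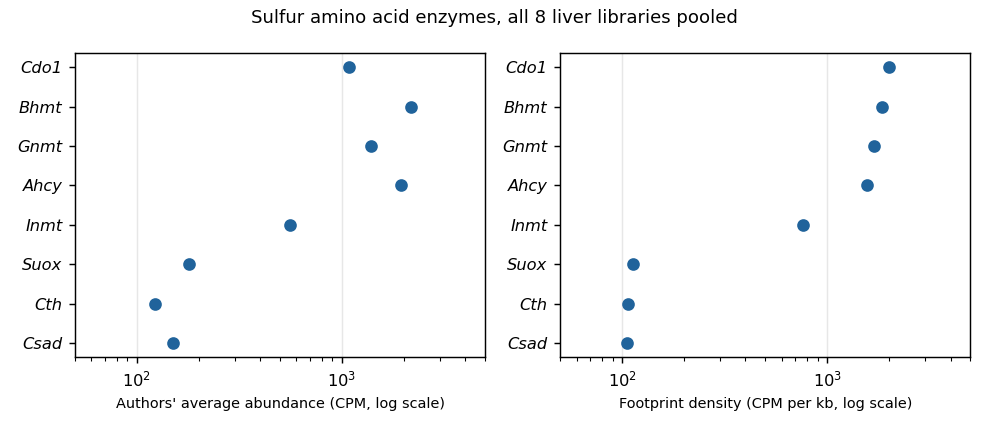
The left panel plots the authors' average abundance in CPM and the right panel the footprint density in CPM per kb, both on log axes, with 1 point per enzyme for all 8 libraries pooled and no error bar, since the table gives none. In the right panel Cdo1, Bhmt, Gnmt and Ahcy sit between 1572 and 1998 CPM per kb, Inmt at 761, and Suox, Cth and Csad between 106 and 114.

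In the methionine cycle itself, Bhmt, which remethylates homocysteine with betaine as the donor, had a log2 CPM of 11.08, or 2163 CPM on a coding length of 1164 bases. Its density of 1858 CPM per kb ranked 60 among the 7500 genes. Ahcy, which splits S-adenosylhomocysteine into homocysteine and adenosine, had 1948 CPM on 1239 bases, a density of 1572 CPM per kb and rank 68. Gnmt, which methylates glycine to sarcosine and so consumes surplus S-adenosylmethionine, had 1389 CPM on 822 bases, a density of 1689.6 CPM per kb and rank 63. These 3 enzymes were thus close in density, and with no replicate error their order cannot be told.

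Inmt transfers methyl groups from S-adenosylmethionine to indoleamines and to sulfur and selenium compounds. It had a log2 CPM of 9.13, or 559.5 CPM on 735 bases. Its density was 761 CPM per kb, at rank 132, and Gnmt exceeded it 2.22-fold.

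Cth, cystathionine gamma-lyase, releases cysteine from cystathionine and also cleaves the selenium analogue. It had a log2 CPM of 6.93, or 122 CPM on 1137 bases, which is the lowest abundance of the 8 enzymes. Its density of 108 CPM per kb ranked 895. Ahcy upstream of it had a 14.6-fold higher density and Bhmt a 17.3-fold higher one. The values of Cbs, which makes the cystathionine, are not known here.

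In the oxidation of cysteine and its products, Cdo1, the dioxygenase that oxidises cysteine to cysteine sulfinate, had 1085 CPM on the shortest coding length of the 8, 543 bases. Its density of 1998 CPM per kb ranked 53 and exceeded Bhmt 1.08-fold and Ahcy 1.27-fold, so with no replicate error it cannot be placed above them, and by CPM its rank was 106. Csad, which decarboxylates cysteine sulfinate on the way to taurine, had 151 CPM on 1422 bases, a density of 106 CPM per kb and rank 910. Cdo1 thus exceeded the next enzyme of taurine synthesis 18.8-fold. Suox, which oxidises sulfite to sulfate in mitochondria, had 179.7 CPM on the longest coding length, 1581 bases, and a density of 114 CPM per kb at rank 858. Suox and Csad, the highest and the lowest of the 3 lower enzymes, differed 1.07-fold, so these 3 cannot be put in order either.

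**Figure D2:**
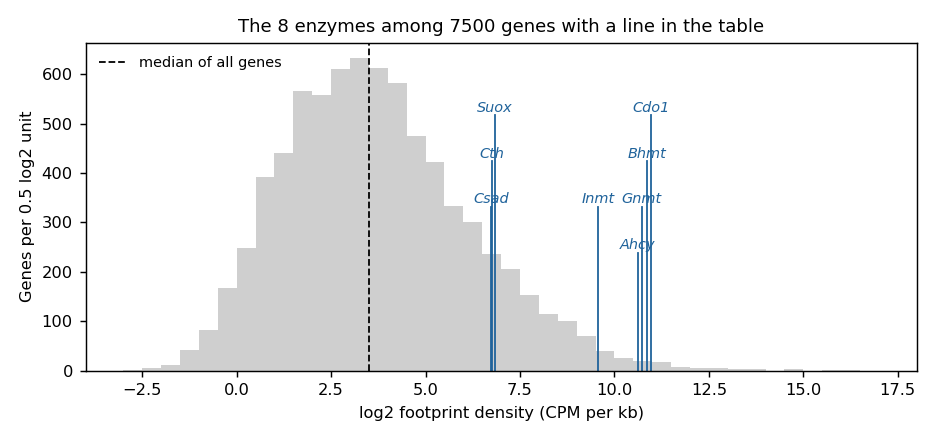
The histogram counts the 7500 genes of the table by log2 footprint density (CPM per kb) in steps of 0.5 log2 units, the dashed line is their median, and each blue line marks 1 enzyme (line heights only separate the names). All 8 enzymes lie right of the median, with Cdo1, Bhmt, Gnmt and Ahcy at ranks 53 to 68, Inmt at 132 and Suox, Cth and Csad at 858 to 910.

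Unique placement of footprints was a limit for Ahcy and Bhmt. Each coding sequence was divided into all windows of 30 bases, about the length of a footprint. These were searched with up to 2 mismatches in the GENCODE M1 protein-coding transcripts of other genes. Transcripts outside that set were not searched. Of the 1270 windows of Ahcy, 92.7% occurred without mismatch and 100% with up to 2 mismatches in Gm4737, an adenosylhomocysteinase-like gene that is annotated as protein coding. Of the 1195 windows of Bhmt, 76.8% occurred without mismatch elsewhere, and 99.2% with up to 2 mismatches in Bhmt-ps1. The symbol Bhmt-ps1 names a pseudogene, but its transcript stands among the protein-coding ones too. Bhmt2 shared 195 windows with Bhmt at that tolerance. Neither Gm4737 nor Bhmt-ps1 had a line in the table. The study kept footprints that aligned to a single place, and whether its RefSeq mRNAs included these copies is not given in the sources used here, so the levels of Ahcy and Bhmt are uncertain. Within the transcripts searched, 0 windows were shared for Gnmt, Cth, Cdo1 and Suox, 12 of 1453 for Csad and 8 of 766 for Inmt, the latter all with Nnmt.

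The enzymes were then set beside 38 further genes of the neighbouring steps, taken from textbook pathways, of which 31 had a line. Their median density was 105 CPM per kb, 26 of them lay above the median gene of the table, and 15 lay above Csad, the lowest of the 8 enzymes. Of these 31, only Adk lay above Inmt. Adk phosphorylates the adenosine that Ahcy releases, and its density was 1021 CPM per kb.

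In the group of remethylation, one-carbon and salvage genes, 9 of 12 had a line. After Adk came Bhmt2, a relative of Bhmt that uses S-methylmethionine as the donor, with 218 CPM per kb, which Bhmt exceeded 8.52-fold. The lowest were Mtr, the folate- and cobalamin-dependent methionine synthase, with 5.84 CPM per kb, and Mtrr, its reductase, with 4.24. Bhmt, Bhmt2 and Mtr all remethylate homocysteine, and Bhmt stood 318-fold above Mtr. Mthfd1, Shmt1 and Shmt2 had no line. The relatives of Ahcy, named after their values were seen, were lower as well, with 66.4 CPM per kb for Ahcyl1 and 13.99 for Ahcyl2.

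Among the other methyltransferases that use S-adenosylmethionine, 4 of 6 had a line. The highest were Pemt, which makes phosphatidylcholine, with 359.6 CPM per kb and Gamt, which makes creatine, with 248. The lowest were As3mt, the arsenic methyltransferase, with 8.06 and Nnmt, which methylates nicotinamide, with 5.45. Tpmt and Hnmt had no line. Nnmt was the gene that shared windows with Inmt, and Inmt exceeded it 139.7-fold in density. Nnmt had only 4.01 CPM, so with unknown depth and no replicate error the size of this ratio is uncertain.

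The 5 genes of choline and betaine oxidation, which supply betaine to Bhmt and take up the sarcosine of Gnmt, all had a line. Their densities ran from 290.5 CPM per kb for Aldh7a1 and 263 for Pipox to 198 for Dmgdh and 68.5 for Chdh, the choline dehydrogenase.

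Of the genes of cysteine, sulfide, taurine and sulfate, 9 of 11 had a line. The highest were Got2, a mitochondrial aspartate aminotransferase, with 490.4 CPM per kb and Tst, the thiosulfate sulfurtransferase, with 388. The lowest were Papss1, which activates sulfate, with 26.7 and Ado, the cysteamine dioxygenase and the other mammalian thiol dioxygenase, with 8.01. Cdo1 exceeded Ado 249.6-fold in density, but Ado had only 5.69 CPM, so the size of this ratio is uncertain. Mpst and Gadl1 had no line. The 3 glutathione synthesis genes belong to a pathway that draws on the same cysteine as Cdo1. Their densities were 421 CPM per kb for Gclm, 241 for Gclc and 87.5 for Gss, and Gclc exceeded Cth 2.24-fold. Scly, the lyase that recovers selenium from selenocysteine, had 55.1 CPM per kb, against which Cth was 1.95-fold higher.

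**Figure D3:**
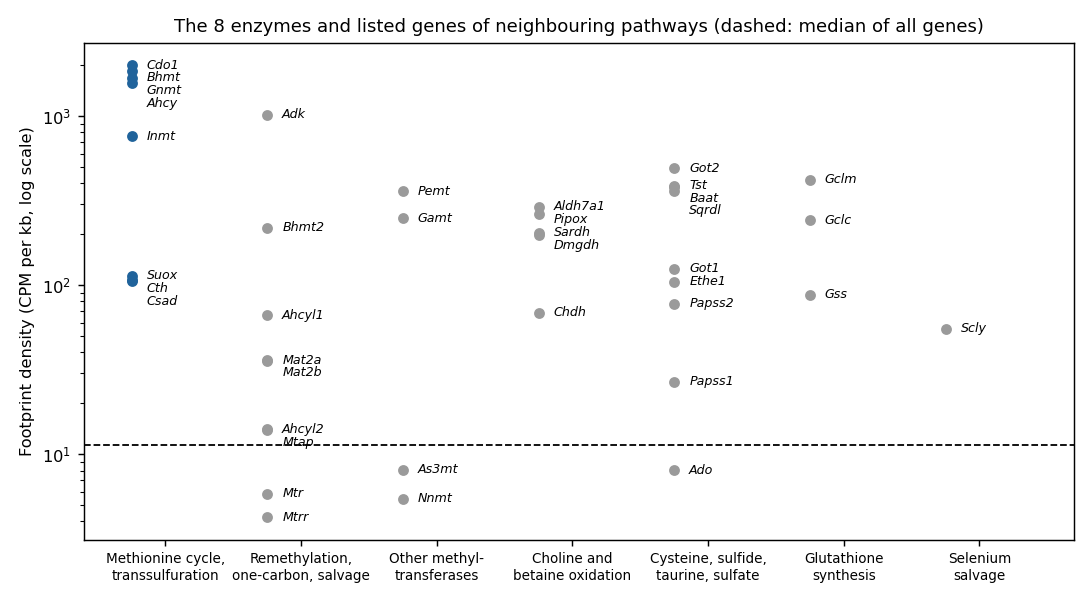
Footprint density in CPM per kb on a log axis is plotted for the 8 enzymes in blue and for the 31 listed genes of neighbouring pathways in grey, with 1 point per gene for all libraries pooled and names beside the points from the highest to the lowest. Cdo1, Bhmt, Gnmt and Ahcy lie above every grey point, and only Adk at 1021 lies above Inmt at 761.

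The labelled tissue was checked against cell markers. Of 6 hepatocyte genes, 5 had a line, with 8188 to 91414 CPM each, Alb the highest, and Cps1 had none. Markers of other cells that had a line were lower, with a summed abundance of 485 CPM for 5 of 5 Kupffer cell genes, 325 for 5 of 5 endothelial genes, 257 for 4 of 4 stellate cell genes, 44.1 for 3 of 4 cholangiocyte genes and 11.8 for 1 of 3 lymphocyte genes, while 0 of 4 red blood cell genes had a line. Since Cps1 had no line, a missing marker gives no level for its cell type. The sums run over different numbers of genes and do not measure cell content. In whole liver, the share of cells that translate an enzyme and the amount of translation per cell cannot be told apart.

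The methionine and cysteine content of the enzymes themselves was read from their codons. In the median gene with a matched coding sequence 2.19% of codons were for methionine and 1.86% for cysteine. Ahcy was rich in methionine, with 17 of 432 codons or 3.94%, which is above 94.0% of genes. Inmt was poor in methionine, with 3 of 264 codons or 1.14%, above 8.71% of genes, and rich in cysteine, with 11 codons or 4.17%, above 92.2% of genes. Suox had 1.47% methionine and 1.65% cysteine codons, and both shares were below the median gene. Cth and Gnmt had 2.76% and 2.73% cysteine codons. The remaining enzymes were near the median gene. Bhmt had 2.21% methionine and 1.97% cysteine codons, Csad had 2.23% of each, and Cdo1 had 4 codons for each residue among 200.

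**Figure D4:**
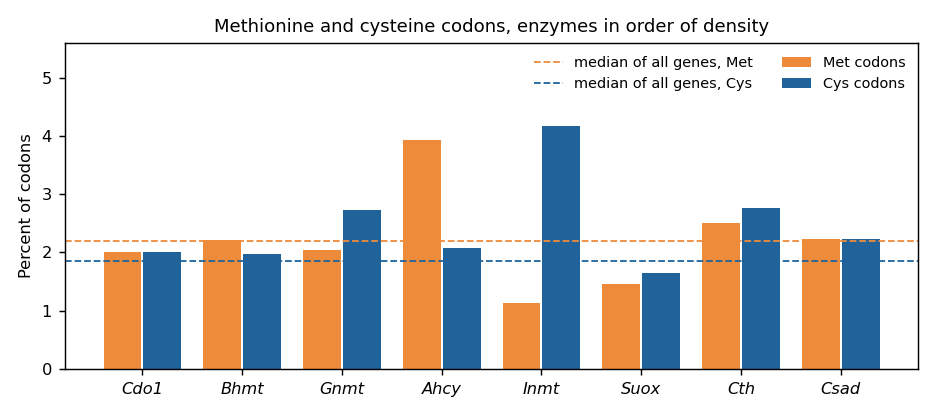
Bars give the share of codons for methionine (orange) and cysteine (blue) in the coding sequence of each enzyme, in order of footprint density from left to right, and dashed lines give the medians of 7093 genes. Ahcy stands out at 3.94% methionine and Inmt at 4.17% cysteine codons.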

How the data were processed

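According to the methods of the study, the authors trimmed adapters, removed rRNA reads with Bowtie, aligned the rest uniquely with up to 2 mismatches to the longest RefSeq isoform of each gene (mm9), left out the first 15 and last 3 codons, and passed to edgeR those genes that exceeded 1 CPM in 3 or more samples. The deposited log2 CPM names no sample and was taken as the authors' average per gene over all libraries, scaled to library size. The deposited fold change, p-value and related columns, 4 in all, are the authors' own comparison of the diets and were not used, so the planned count test was not run. There were 0 columns of single samples. Groups came from sample titles.

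CPM was taken as 2 to the power of the deposited log2 CPM and divided by the deposited length. No filter or pseudocount was applied, and no test was made. Coding sequences of the deposited length plus 60 bases were taken from GENCODE M1, whose genome build is the same assembly as mm9. The work used Python 3.11.15 and pandas 2.3.3. The window search was checked against a plain count of mismatches for Inmt against Nnmt only. The genes named were all enzymes with a line and, of each further list, the 2 highest, the 2 lowest and those without a line. A pair of genes of these lists was left out of every count and is not reported here, and the listed genes outside this rule enter only the counts, medians and plot. Enzymes and lists were chosen with earlier results of these data known.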

Additional observations from a re-analysis of the deposited data

How the results depend on the processing

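The enzymes' median density was 103-fold that of all genes, 51.3-fold once genes under a log2 CPM of 3 were left out, and 53.2-fold when abundance in CPM was used in place of density. The ratio of Inmt to Suox was 3.11 in CPM. In CPM the order was Bhmt, Ahcy, Gnmt, Cdo1, Inmt, Suox, Csad and Cth, and the rank of Cdo1 moved from 53 to 106 and that of Suox from 858 to 560. The 5 high enzymes stayed above the other 3 under each length and abundance setting run. The groups were drawn from these same densities, and the length settings moved each coding length by 60 bases or fewer. The kept order is therefore no independent support for the split. The other 75 of 80 values obtained under alternatives moved by less than 1.5-fold, a limit chosen because no replicate error was at hand. Ratios of the enzymes to the further genes of neighbouring steps were not among these values. Use of the whole coding sequence, 60 bases longer, was chosen after seeing the data in place of the RefSeq protein length, which was not run. Settings that need counts per library, each mouse left out included, could not be tried. No paired analysis was possible because the table holds no value per mouse. With unknown depth and no replicate error, density differences as small as those among Suox, Cth and Csad cannot be judged.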

Other observations

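Weighted by footprint density, methionine codons made up 2.48% of the codons of all 7093 matched genes and 2.49% of those of the 8 enzymes, and cysteine codons 2.39% and 2.32%. Without the 10 most abundant genes of the table, the weighted shares of all matched genes were 2.55% methionine and 1.98% cysteine. Unweighted, the shares for the 8 enzymes were 2.24% methionine and 2.34% cysteine, against 2.18% and 2.13% for all matched genes. These values were not tested.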
